A study of Drosophila melanogaster with 8 samples.

Results

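The insect cuticle is a layered coat of chitin fibers and structural proteins, and the genes for those proteins were followed here in the heads of flies with and without induced expression of the C9orf72 repeat. Members were the genes of the deposited table whose names begin with Cpr and a digit, Lcp, Ccp84, Twdl, Acp followed by a number and Aa, Edg and a digit, Cpap or obst-, together with Pcp and resilin. This naming rule took 132 of the 16727 genes in the table, and it used no measured value. By class they were 70 Cpr, 25 Twdl, 15 Lcp, 8 obst-, 7 Ccp84, 3 Edg and 2 Acp genes, with Pcp and resilin as single genes and no gene named Cpap. The name fits the family with 1 exception, since Acp26Aa encodes a male accessory gland protein that is passed to females at mating and is not a cuticle protein. It had 0 counts in all 8 libraries.

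The cuticle is secreted by epithelia on their outer face, by the epidermis, the tracheae and the foregut and hindgut, and in the compound eye by the cells that build the corneal lens. Most cuticle protein genes are switched on in pulses around each molt, under control of the steroid hormone ecdysone, so that larval, pupal and adult cuticle draw on different members. Cpr, Lcp, Ccp84 and Pcp proteins, Acp65Aa, Edg78E and Edg84A belong to a family that binds chitin through the Rebers and Riddiford domain. Tweedle (Twdl) proteins are another class of structural cuticle proteins, obstructor (obst) proteins carry peritrophin-type chitin-binding domains, and resilin is the rubber-like protein of elastic cuticle.

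RNA-seq was performed on 4 libraries from C9-induced and 4 from uninduced heads of female flies aged 7 d, each made from polyA RNA of 15 pooled heads. All flies carried (G4C2)36, a transgene of the repeat, and elavGS, a GeneSwitch driver that works in neurons and is activated by the steroid RU486, in a w1118 background. Induced flies ate food with 200 µM RU486 for 5 d and uninduced flies food with the ethanol vehicle for the same 5 d. Flies that lacked the repeat but ate RU486 were not sampled, so effects of RU486 and of the repeat cannot be told apart. Whole heads were sequenced, and in such bulk samples fewer cells of a type and less RNA per cell cannot be told apart. Totals were 13421396 to 14962813 counts per induced library and 13247282 to 14192723 per uninduced library. Levels are given as normalized CPM, a gene's counts relative to the library total after scaling by the TMM factors of edgeR, with SD over the 4 libraries of a group. The quasi-likelihood test of edgeR was run on the 9905 genes that passed a filter on low counts, p-values were adjusted over all of these by the Benjamini-Hochberg procedure, and genes below 0.05 were called changed.

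Most of the family had no counts or few counts in these adult heads. Of the 132 genes, 25 had 0 counts in every library, and a further 46 never exceeded 3 counts in a library, which corresponds to a floor of 0.19 to 0.237 CPM. Another 30 genes had more than 3 counts in some library but did not pass the filter, and 31 passed and were tested. The tested genes were 20 Cpr, 3 Twdl, 3 obst-, 2 Edg, 1 Lcp and 1 Ccp84 gene and resilin. Neither Pcp, which encodes a pupal cuticle protein (8 to 10 counts per induced and 2 to 9 per uninduced library), nor Acp65Aa, an adult cuticle protein gene (4 to 12 and 4 to 7 counts), was tested. The larval genes Lcp1, Lcp2, Lcp3 and Lcp4 together had 32 counts in the induced and 18 in the uninduced libraries. Among the genes at 0, Cpr57A shares all of its 1488 exon bases with Obp57d on the same strand. Its reads could have been lost in the counting, so its 0 counts need not mean silence.

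**Figure D1:**
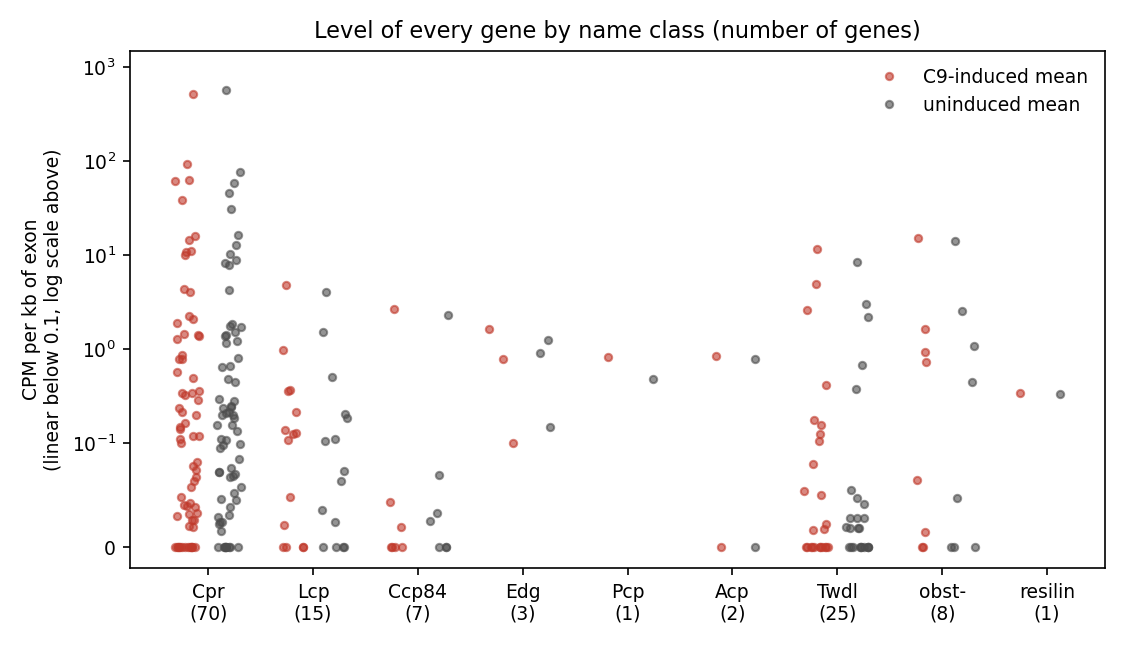
Mean level of each of the 132 genes in CPM per kb of exon (vertical axis, linear below 0.1 and logarithmic above), by name class, with C9-induced means left of uninduced means and 1 point per gene and group. Cpr65Au stands at the top with 519 CPM per kb in induced and 571 in uninduced heads, while most Lcp, Ccp84 and Twdl genes lie near 0.

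A single gene held a large share of the family's RNA in every library. Cpr65Au, on chromosome arm 3L from 6131242 to 6132109, took 34.5 to 38% of the summed CPM of all members in induced and 41.5 to 43.4% in uninduced libraries, and it ranked 504 among all genes by mean CPM. Of its exon bases, 93.3% are shared with asRNA:CR46005 on the opposite strand. The strand setting of the counting is not known, so the level and share of Cpr65Au could include reads of that RNA. Per kb of exon Cpr65Au was at 519 CPM in induced and 571 CPM in uninduced heads, against 92.8 and 76.6 CPM for Cpr67B, the next gene. Cpr49Ae (62.0 and 58.1 CPM per kb), Cpr72Ec (62.4 and 45.5) and Cpr49Ag (38.5 and 31.2) followed. The highest level outside the Cpr class was that of obst-E, a chitin-binding protein known for shaping the pupal cuticle, with 15.3 CPM per kb in induced and 14 in uninduced heads. Among Tweedle genes the highest was TwdlG (11.5 and 8.36 CPM per kb), and resilin was low in both groups (0.342 and 0.330).

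Genes of the family lie in clusters of neighbors, and within a cluster usually only a few were on. Taking members less than 20000 bases apart as neighbors, 94 genes fell into 18 clusters, of which 5 held 5 or more members. These 5 clusters held 53 genes and only 9 of the tested ones, whereas 22 tested genes lay among the other 79. The largest, with 18 Lcp65A, Cpr65A and Acp65A genes on 3L from 6130386 to 6161589, held Cpr65Au beside 7 genes at 0 in every library, and only Cpr65Au and Lcp65Ac were tested. In the cluster of 8 Cpr49A genes on 2R, from 12376626 to 12415170, Cpr49Ae, Cpr49Af and Cpr49Ag were tested, and in that of 7 Cpr47E genes on 2R, from 11251751 to 11278445, Cpr47Ea, Cpr47Ee and Cpr47Ef. The cluster of Edg84A and 7 Ccp84A genes on 3R, from 6684445 to 6704903, had a single tested gene, Ccp84Ag. The block of 12 Tweedle genes on 3R from 26619118 to 26641054 was nearly silent, with 7 counts over the induced and 4 over the uninduced libraries for all 12 together. The near-identical copies Lcp65Ag1, Lcp65Ag2 and Lcp65Ag3 could share reads in the counting, and none of them was tested. The same could hold for Lcp65Ab1 and Lcp65Ab2 and for Cpr65Ax1 and Cpr65Ax2, which are paired by name. Both pairs were at 0 in every library, and those 0 counts need not mean silence.

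**Figure D2:**
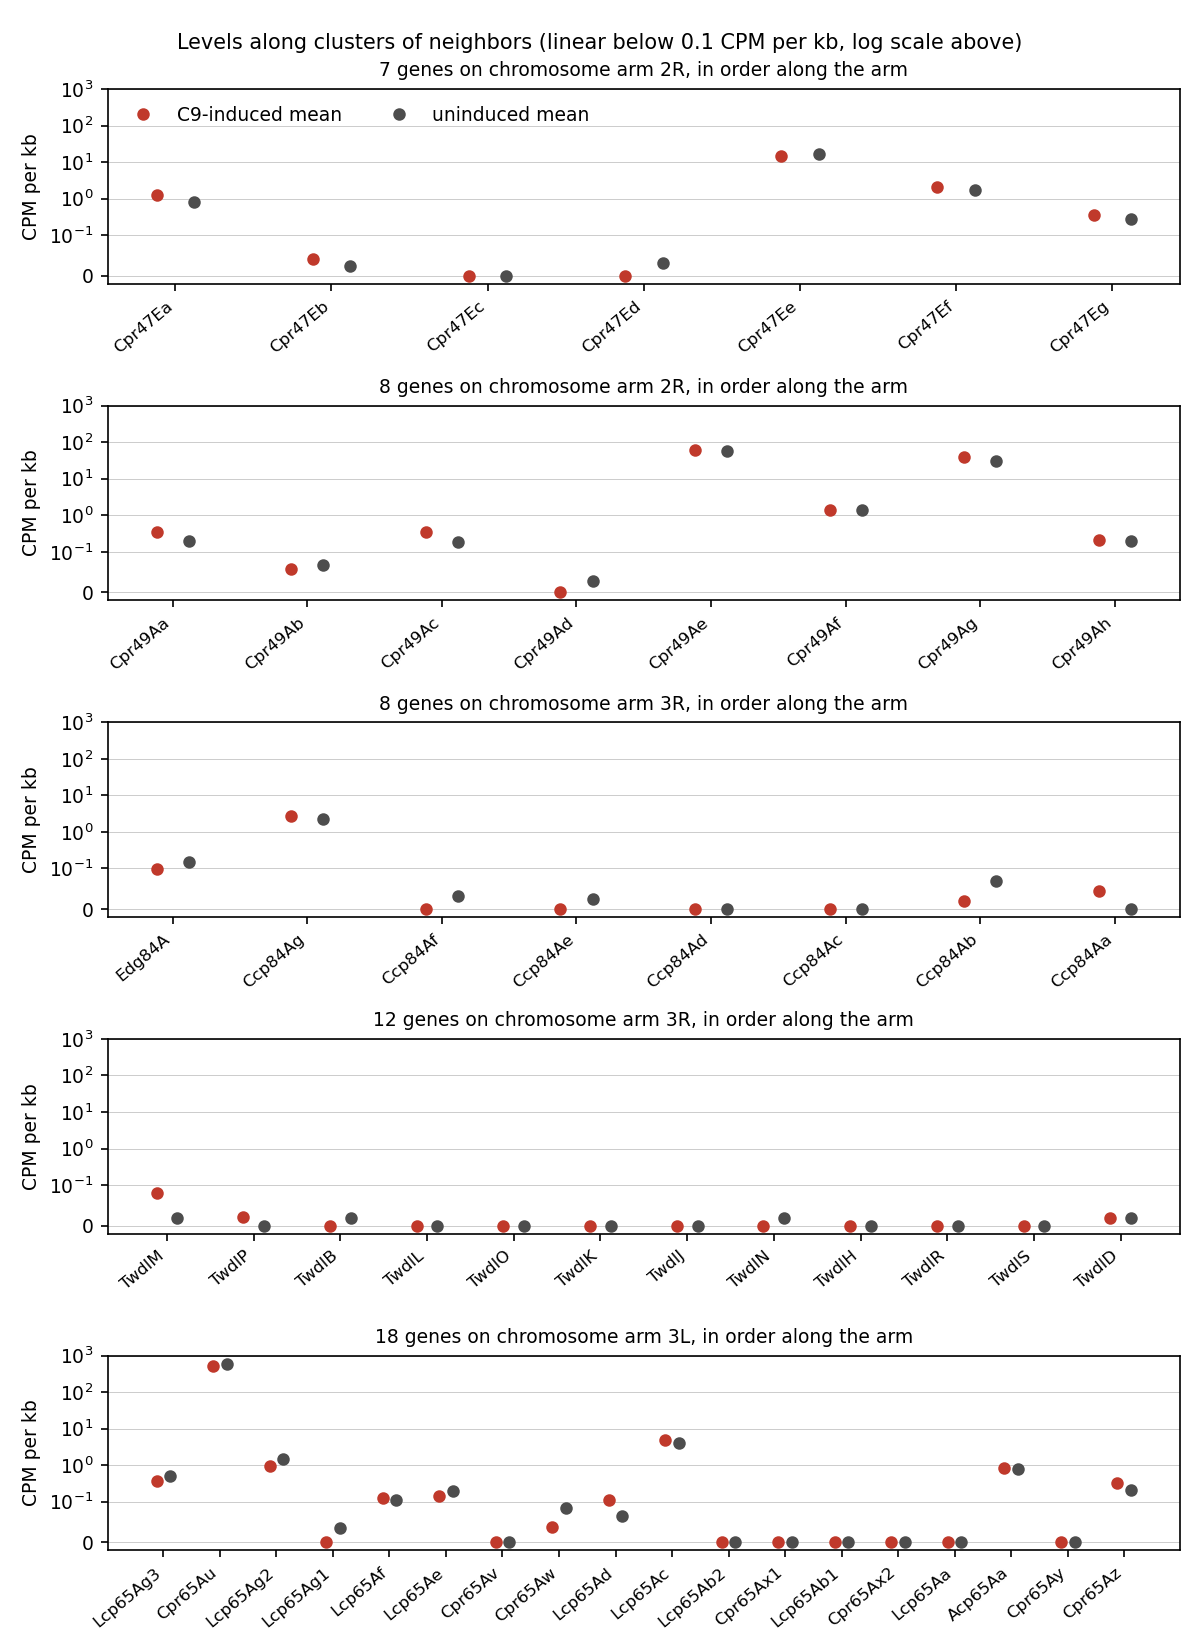
Mean CPM per kb of exon (vertical axes, linear below 0.1 and logarithmic above) of genes in the 5 clusters with 5 or more members, in order along the chromosome arm, with C9-induced means left of uninduced means. Cpr65Au on 3L and Cpr49Ae and Cpr49Ag on 2R stand far above their neighbors, and the 12 Tweedle genes on 3R lie at or near 0.

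After induction 7 of the 31 tested genes rose and 3 fell, so 32.3% changed, whereas 36.5% of all 9905 tested genes did. By direction, 22.6% of the tested members were higher, against 17.7% of all tested genes, and 9.68% were lower, against 18.8%. The share of changed genes in the family was thus near that of all tested genes. With the log2 fold change threshold of 0.58 that the methods use, 2 members were higher (6.45%, against 4.02% of all tested genes) and 3 were lower (9.68%, against 4.04%). The groups did not overlap for 6 members that were higher (19.4%, against 18.1%) and 2 that were lower (6.45%, against 17.9%). The median log2 fold change of the tested members was 0.13 and that of all tested genes 0.00, and the members' median was -0.03 without the count filter. At an unadjusted p under 0.05 there were 11 of the 31 members, against 45.1% of all tested genes. Scaling to the library totals alone raised the median of all genes to 0.18 and that of the members to 0.31, and turned the split of the members to 12 higher and 3 lower, and that of all genes to 4482 higher and 875 lower in place of 1750 and 1866.

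**Figure D3:**
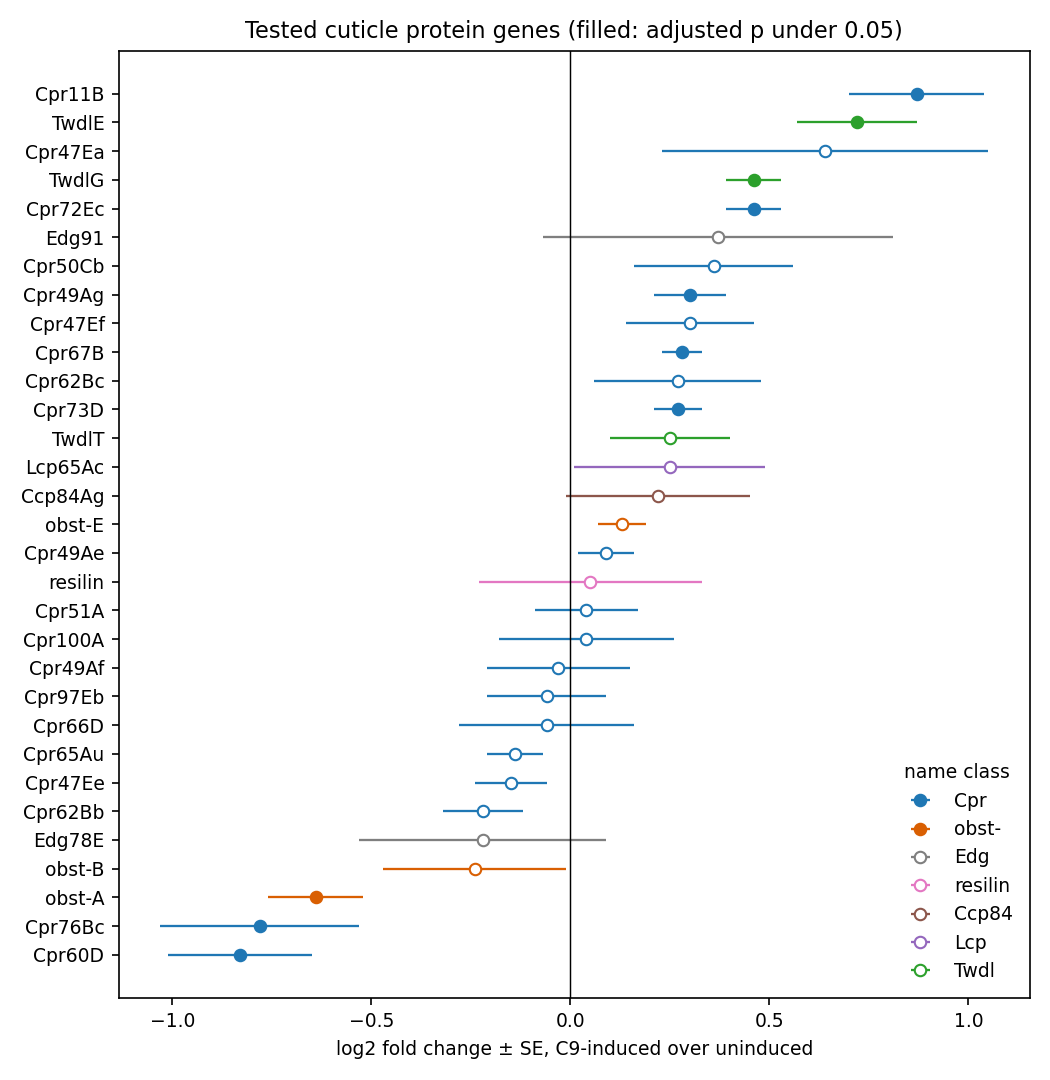
Log2 fold change, C9-induced over uninduced (horizontal axis, bars are ± SE), of the 31 tested genes, colored by name class and filled where the adjusted p was under 0.05. Values run from -0.83 for Cpr60D to 0.87 for Cpr11B, and open symbols crowd around 0.

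The risers included the most abundant Cpr genes after Cpr65Au. Cpr72Ec, on 3L from 16365894 to 16367340, encodes a structural protein of the corneal lens, the clear cuticle over each facet of the eye. It had 87.0, 89.4, 88.1 and 96.8 CPM in induced heads, against 62.6, 57.8, 67.1 and 75.9 CPM in uninduced heads. Every induced library was above every uninduced library (log2 fold change 0.46, SE 0.07, adjusted p = 1.6e-04 in edgeR, exact two-sided permutation p = 0.0286, the smallest that 4 libraries against 4 allow). Cpr67B, on 3L from 9404797 to 9406174, had 91.8, 97.8, 91.7 and 93.6 CPM in induced heads, against 76.6, 78.2, 73.3 and 81.3 CPM in uninduced heads. Its rise was smaller, with the groups again apart (log2 fold change 0.28, SE 0.05, adjusted p = 2.9e-04 in edgeR).

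The largest rise by fold was that of Cpr11B, on the X chromosome from 12553124 to 12554235. It had 8.65, 13.9, 16.0 and 14 CPM in induced heads, against 9.05, 6.81, 5.94 and 6.92 CPM in uninduced heads. Induced replicate 1 lay below uninduced replicate 1, so the groups overlapped (log2 fold change 0.87, SE 0.17, adjusted p = 0.00111 in edgeR, exact two-sided permutation p = 0.0571). Over the alternatives its log2 fold change stayed between 0.76 and 1.05. Cpr49Ag, on 2R from 12407793 to 12408523, had 27.7, 25.7, 23.6 and 23.1 CPM in induced heads, against 19.8, 17.8, 19.8 and 23.9 CPM in uninduced heads. The groups overlapped through uninduced replicate 4 (log2 fold change 0.30, SE 0.09, adjusted p = 0.0166 in edgeR, and 0.0555 with a log2 fold change of 0.25 when induced replicate 1 was left out). Its neighbors in the same cluster did not pass the test, Cpr49Ae with a log2 fold change of 0.09 (SE 0.07, edgeR adjusted p = 0.331, against 0.27 and 0.00547 with scaling to the library totals alone) and Cpr49Af with -0.03 (SE 0.18, edgeR adjusted p = 0.923). A difference between the neighbors was not tested.

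Cpr73D, on 3L from 16939100 to 16957689, rose slightly, with 29.0, 32.5, 31.6 and 28.1 CPM in induced heads, against 23.8, 26.3, 24.4 and 25.7 CPM in uninduced heads. The groups did not overlap (log2 fold change 0.27, SE 0.06, adjusted p = 0.00418 in edgeR). Of its 3030 exon bases, 294 (9.7%) are shared with Nc73EF on the opposite strand, a gene of the oxoglutarate dehydrogenase complex now called Ogdh. Nc73EF averaged 515 ± 17.3 CPM in induced and 524 ± 58.4 CPM in uninduced heads (SD, n = 4 each), with a log2 fold change of -0.03 (edgeR adjusted p = 0.809). The strand setting of the counting is not given in the sources used here, so reads of the shared bases could belong to either gene.

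**Figure D4:**
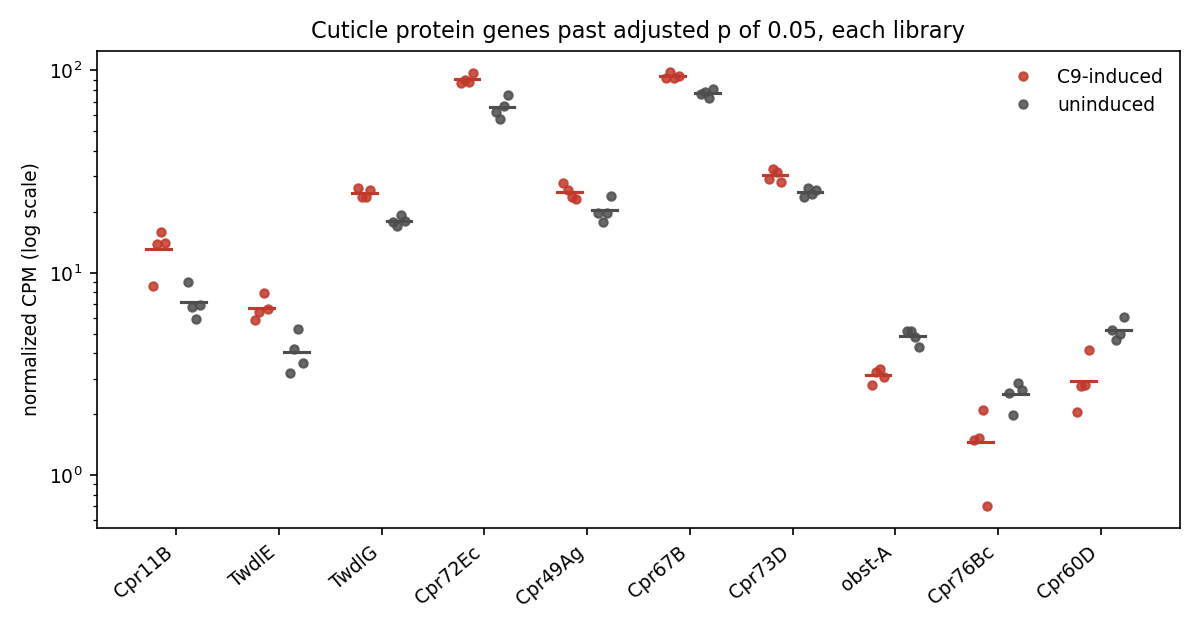
Normalized CPM (vertical axis, log scale) in each library for the 10 genes past an adjusted p of 0.05, ordered from the largest rise to the largest fall, with C9-induced libraries left of uninduced libraries and bars at group means. Points of the groups are apart for TwdlE, TwdlG, Cpr72Ec, Cpr67B, Cpr73D, obst-A and Cpr60D, and the groups overlap for Cpr11B, Cpr49Ag and Cpr76Bc.

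Of the 25 Tweedle genes only 3 were tested, of which 2 rose and none fell. Over all tested genes 17.7% were higher and 18.8% lower, and 3 genes are too few to set against those shares. TwdlG, on 3R from 4248723 to 4251341, had 26.3, 23.7, 23.7 and 25.6 CPM in induced heads, against 17.9, 17.1, 19.2 and 18.1 CPM in uninduced heads. The groups were well apart (log2 fold change 0.46, SE 0.07, adjusted p = 9.4e-05 in edgeR, the lowest of the family). TwdlE, on 2L from 7857957 to 7860839, had 5.86, 6.41, 7.91 and 6.64 CPM in induced heads, against 3.21, 4.21, 5.30 and 3.58 CPM in uninduced heads (log2 fold change 0.72, SE 0.15, adjusted p = 0.00175 in edgeR). The groups of TwdlE did not overlap, but 968 of its 1346 exon bases (71.9%) are shared with lectin-28C, a C-type lectin gene on the opposite strand. lectin-28C was more abundant and rose too, with 68.9 ± 10.7 CPM in induced and 41.0 ± 1.40 CPM in uninduced heads (SD, n = 4 each, log2 fold change 0.75, edgeR adjusted p = 1.5e-05). With the strand setting unknown, the rise of TwdlE cannot be told apart from that of lectin-28C. The remaining tested Tweedle gene, TwdlT, did not pass (log2 fold change 0.25, SE 0.15, adjusted p = 0.206).

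The 3 genes that fell were all of low abundance. Cpr60D, on 2R from 24662682 to 24663406, had 2.04, 2.76, 2.79 and 4.15 CPM in induced heads, against 5.23, 4.67, 4.99 and 6.06 CPM in uninduced heads. All induced values lay below all uninduced values (log2 fold change -0.83, SE 0.18, adjusted p = 0.00221 in edgeR). obst-A, on X from 20239855 to 20243209, encodes a chitin-binding scaffold protein known from the larval cuticle, where it is needed for chitin packaging. It had 2.79, 3.24, 3.36 and 3.06 CPM in induced heads, against 5.16, 5.13, 4.83 and 4.28 CPM in uninduced heads, again without overlap (log2 fold change -0.64, SE 0.12, adjusted p = 9.6e-04 in edgeR). Cpr76Bc, on 3L from 19520945 to 19527272, had 1.5, 1.52, 2.09 and 0.702 CPM in induced heads, against 2.54, 1.99, 2.85 and 2.64 CPM in uninduced heads. It rested on 11 to 33 counts per induced and 26 to 36 per uninduced library (log2 fold change -0.78, SE 0.25, adjusted p = 0.0247 in edgeR). It lost the call when induced replicate 4 (log2 fold change -0.55, adjusted p = 0.0575) or uninduced replicate 1 (-0.77, 0.0574), 3 (-0.71, 0.0699) or 4 (-0.75, 0.0577) was left out.

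The most abundant member was not among the changed genes. Cpr65Au had 243, 296, 259 and 294 CPM in induced heads, against 297, 280, 294 and 329 CPM in uninduced heads. The groups overlapped (log2 fold change -0.14, SE 0.07, adjusted p = 0.135 in edgeR), and the value turned to 0.04 (adjusted p = 0.636) when libraries were scaled to their totals alone. Of its 526 exon bases, 491 are shared with asRNA:CR46005 on the opposite strand, which was not analysed here. Cpr49Ae averaged 73.5 ± 6.05 CPM in induced and 68.9 ± 6.27 CPM in uninduced heads. Cpr47Ee averaged 20.2 ± 1.45 CPM in induced and 22.4 ± 2.85 CPM in uninduced heads (log2 fold change -0.15, SE 0.09, adjusted p = 0.206, which became 0.0452 with a log2 fold change of -0.22 without uninduced replicate 2).

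For obst-E the groups did not overlap, with 27.2, 27.9, 27.0 and 28.8 CPM in induced heads, against 26.9, 26.5, 24.5 and 23.6 CPM in uninduced heads. The difference was small and did not pass (log2 fold change 0.13, SE 0.06, adjusted p = 0.119 in edgeR, against 0.00175 and 0.31 with scaling to the library totals alone). Cpr62Bb was nearest to the threshold among the genes that did not pass, with 11 ± 1.03 CPM in induced and 12.8 ± 1.55 CPM in uninduced heads (log2 fold change -0.22, SE 0.10, adjusted p = 0.0995). Cpr51A averaged 6.94 ± 1.23 CPM in induced and 6.78 ± 0.83 CPM in uninduced heads (log2 fold change 0.04, SE 0.13, adjusted p = 0.861). The most abundant genes of the Lcp, Ccp84 and Edg classes, and resilin, were imprecisely measured. Log2 fold changes were 0.25 (SE 0.24) for Lcp65Ac, 0.22 (SE 0.23) for Ccp84Ag, 0.37 (SE 0.44) for Edg91, an ecdysone-dependent gene, and 0.05 (SE 0.28) for resilin, with adjusted p-values of 0.45 to 0.91 in edgeR. In all, 21 tested genes did not pass, with 13 positive and 8 negative values from -0.24 for obst-B to 0.64 for Cpr47Ea (SE 0.41, adjusted p = 0.241).

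Precision followed abundance. The 9 tested genes with a mean of 20 CPM or more had standard errors of 0.05 to 0.09 and gave 5 of the 10 calls. The 22 tested genes under 20 CPM gave 5 as well, and the 10 genes under 2 CPM had standard errors of 0.18 to 0.44. The 101 genes that were not tested had 151 to 198 counts per induced and 141 to 167 counts per uninduced library in all, or 11.4 ± 0.978 CPM in induced and 11.5 ± 1.06 CPM in uninduced heads (SD, n = 4 each). A difference in single genes of this group was mostly not detectable at this depth. The exceptions were 2 Tweedle genes chosen after their values were seen. TwdlV, which lies beside TwdlG on 3R from 4254708 to 4255833, had 7, 6, 8 and 6 counts in induced libraries, against 0, 1, 1 and 1 in uninduced libraries. Summed, these were 27 against 3 counts, a depth-scaled ratio of 7.71 with a 95% exact interval of 2.37 to 39.7 that covers counting error only. Without the count filter edgeR gave it a log2 fold change of 2.77 (SE 0.62, adjusted p = 0.00157), and DESeq2 gave 2.94 (adjusted p = 0.015). TwdlBeta, now Twdlbeta, on 2R from 11862537 to 11863252, had 0, 0, 2 and 5 counts in induced libraries, against 4, 9, 7 and 5 in uninduced libraries. Its log2 fold change was -1.98 (SE 0.65, adjusted p = 0.0276) in edgeR without the filter and -2.08 (adjusted p = 0.046) in DESeq2, with overlapping counts.

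Summed over all 132 genes, cuticle protein RNA came to 705, 778, 724 and 784 CPM in induced heads, against 715, 661, 696 and 758 CPM in uninduced heads. These sums overlapped, though with scaling to the library totals alone they did not (731 to 847 CPM in induced and 631 to 692 CPM in uninduced heads), and they were carried by few genes, since the 5 most abundant held 74 to 75.9% of the sum in induced and 74.8 to 76.9% in uninduced libraries. Without Cpr65Au, the remaining 131 genes summed to 462, 482, 465 and 490 CPM in induced heads, against 419, 381, 402 and 429 CPM in uninduced heads. The sums without Cpr65Au did not overlap, and they include the 7 called risers, of which Cpr67B and Cpr72Ec were the most abundant. All sums are given as levels only, without a test.

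The corneal lens is the cuticle of the eye, and 4 genes of its structural proteins were compared, of which Cpr72Ec and Cpr66D are members. Cry, the table's name for drosocrystallin (Crys) and not the photoreceptor gene cry, had 24.4, 30.2, 25.5 and 30.4 CPM in induced heads, against 14.4, 14.5, 16.1 and 12.6 CPM in uninduced heads. The groups did not overlap (log2 fold change 0.94, SE 0.09, adjusted p = 3.1e-06 in edgeR), and a difference from the rise of Cpr72Ec was not tested. Retinin, the most abundant of the 4 transcripts in these heads by CPM, did not pass (405 ± 16.4 CPM in induced and 413 ± 28.3 CPM in uninduced heads, SD, n = 4 each, log2 fold change -0.03, SE 0.05, edgeR adjusted p = 0.696). With scaling to the library totals alone retinin was at 0.15 (adjusted p = 0.0269). Cpr66D was low, with 1.58 ± 0.423 CPM in induced and 1.66 ± 0.240 CPM in uninduced heads (log2 fold change -0.06, SE 0.22, edgeR adjusted p = 0.848). Thus 2 of the 4 lens genes rose and none fell, where 17.7% of all tested genes were higher and 18.8% lower, and 4 genes are too few to set against those shares.

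**Figure D5:**
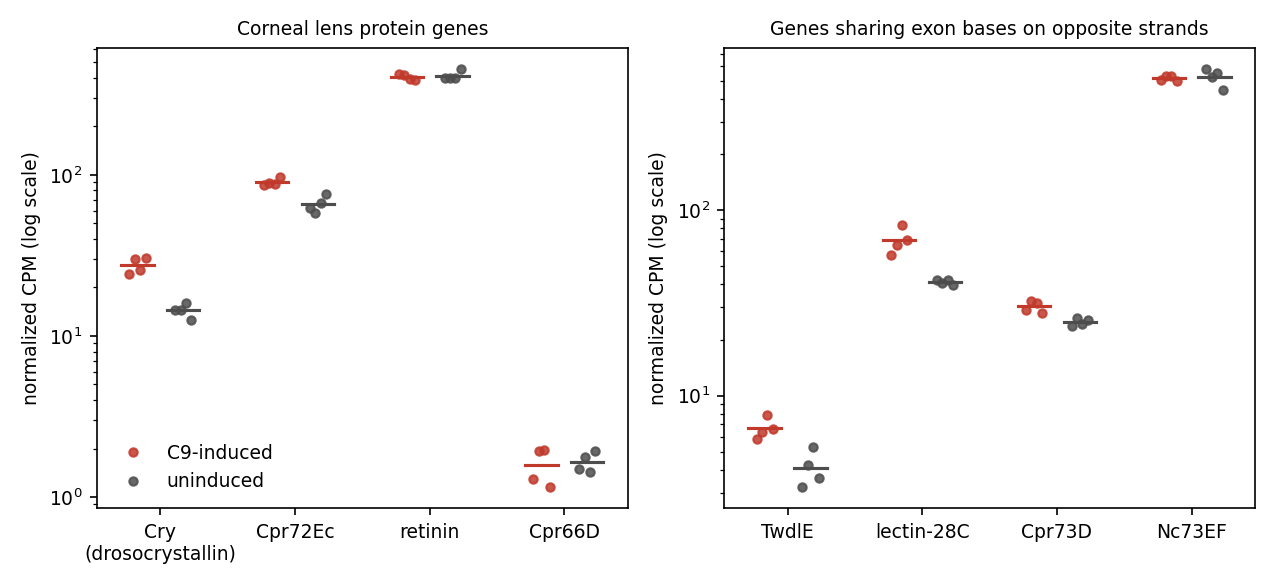
Normalized CPM (vertical axes, log scale) in each library, with C9-induced libraries left of uninduced libraries and bars at group means. Left, the 4 corneal lens protein genes, of which Cry (drosocrystallin) and Cpr72Ec rose. Right, TwdlE beside lectin-28C, which rose as well and overlaps 71.9% of the exon bases of TwdlE. Cpr73D is shown beside Nc73EF, which stayed at 515 CPM in induced and 524 CPM in uninduced heads.

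Genes that build, anchor and harden the cuticle were followed in lists. Of cuticle proteins whose names the rule does not catch, 2 of 8 tested rose (Cry, and Gasp with a log2 fold change of 0.22, a chitin-binding protein of the tracheal matrix) and 1 fell (CG16885, now Vajk2, -0.51), where 17.7% of all tested genes were higher and 18.8% lower. Gasp lost its call, leaving 1 higher gene, in DESeq2 (adjusted p = 0.105), with the replicate block (edgeR adjusted p = 0.0539) and when induced replicate 2 or 4 or uninduced replicate 1 or 2 was left out. Of 20 tested genes of chitin synthesis, assembly and turnover, 1 rose (Gfat2, of the hexosamine pathway, log2 fold change 0.25) and 2 fell (Cht5 and Cda5, -0.25). Both shares were below the 17.7% and 18.8% of all tested genes. The fall was largest for Cht5, a chitinase, with 4.14 ± 0.238 CPM in induced and 6.61 ± 0.360 CPM in uninduced heads (SD, n = 4 each, log2 fold change -0.67, SE 0.10, edgeR adjusted p = 1.4e-04). Of 9 tested genes of the apical matrix, most of them with zona pellucida domains, only 1 passed, against 36.5% of all tested genes. This was dusky-like (dyl), which helps to shape the cuticle of bristles. It had 3.61, 3.58, 3.04 and 2.87 CPM in induced heads, against 1.35, 1.22, 0.95 and 1.32 CPM in uninduced heads (log2 fold change 1.42, SE 0.17, adjusted p = 2.1e-05 in edgeR). With scaling to the library totals alone, 5 genes of this list were higher, where 4482 of all 9905 tested genes were.

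Genes of pigmentation and tanning leaned the other way, with 1 of 22 tested genes higher and 10 lower, a share of lower genes well above the 18.8% of all tested genes. The list held enzymes that neurons and other tissues also use. Hn, ple and yellow-f2 were picked as examples after their values were seen. Henna (Hn), which hydroxylates phenylalanine, averaged 518 ± 39.1 CPM in induced and 838 ± 113 CPM in uninduced heads (SD, n = 4 each, log2 fold change -0.69, edgeR adjusted p = 1.8e-05). The tyrosine hydroxylase gene ple, of dopamine synthesis, was at -0.57 (adjusted p = 3.4e-06), and yellow-f2, of melanin synthesis, at -0.92 (adjusted p = 1.5e-07). PPO1, a prophenoloxidase made by hemocytes called crystal cells, had the largest fall (log2 fold change -1.04, SE 0.29, edgeR adjusted p = 0.0106), but induced replicate 3, at 25.7 CPM, was within the uninduced range of 21.7 to 30.4 CPM. Without induced replicate 3 its log2 fold change was -1.63, and in DESeq2 its adjusted p was 0.0517. With scaling to the library totals alone 7 genes of this list were higher and 7 lower. Of all 9905 tested genes, 4482 were then higher and 875 lower.

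Genes of molting hormone and eclosion were mostly higher where they changed, with 6 of 19 tested higher and 2 lower, where 17.7% of all tested genes were higher and 18.8% lower. The rise was largest for Hr38, a nuclear receptor gene known both for adult cuticle formation and as a gene induced by neuronal activity, with 38.2 ± 3.24 CPM in induced and 14.4 ± 1.31 CPM in uninduced heads (SD, n = 4 each, log2 fold change 1.40, SE 0.08, edgeR adjusted p = 1.4e-08). The ecdysone-response genes Eip78C (0.67), Eip75B (0.44) and br (0.41) also rose, and were named after their values were seen. Others of the same response did not pass, with log2 fold changes of -0.00 for Eip74EF, -0.05 for EcR, -0.13 for E23 and -0.13 for Hr46, whose groups did not overlap (edgeR adjusted p = 0.0766). The other gene that fell was ETH (-0.81, edgeR adjusted p = 0.0174), which encodes the ecdysis-triggering peptides, and it lost the call in DESeq2 (adjusted p = 0.102) and without uninduced replicate 2 (edgeR adjusted p = 0.0677). With scaling to the library totals alone 11 genes of this list were higher, where 4482 of all 9905 tested genes were. CCAP, a neuropeptide of ecdysis, had the largest change of the list (log2 fold change -1.44, SE 0.37, edgeR adjusted p = 0.00713) on 2 to 15 counts per induced and 14 to 26 per uninduced library. A minimum of 10 counts in every library removed CCAP and ETH before the test, so it does not bear on their calls. Of 3 tested Osiris genes, a family expressed in cuticle-forming epithelia, none passed in edgeR or had an unadjusted p under 0.05. Of the 24 genes of the family, 20 were tested in edgeR without the count filter and 2 were higher. With that setting 1800 of all 14310 tested genes were higher. DESeq2 tested 8 genes of the family and called 1 higher, where 1527 of all 11003 tested genes were.

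Markers of other head cells were read beside these values. All 8 fat body markers fell, and their summed level was 90018 to 114890 CPM in induced and 141756 to 153516 CPM in uninduced libraries. Neuronal markers had 1 of 6 higher and none lower, glial markers 2 of 6 higher and 2 lower, photoreceptor markers 1 of 11 higher and 1 lower, and muscle markers 1 of 8 higher and none lower. Over all tested genes, 17.7% were higher and 18.8% lower. Of 5 hemocyte markers 1 was higher and 3 lower, but only 1 was lower in DESeq2. For Hml, NimC1 and eater, induced replicate 3 was the highest induced library, at 51.3, 10.7 and 2.6 CPM. The other induced libraries had 22 to 26.7, 4.07 to 5.24 and 1.15 to 1.86 CPM. CG18031 (FarO), the only tested marker of oenocytes, the cells that make cuticular hydrocarbons, was higher (log2 fold change 1.56, edgeR adjusted p = 8.1e-08). The oenocyte markers Cyp4g1 and eloF were not tested. Cyp4g1 had 34, 0, 61 and 1 counts in induced libraries, against 1, 1, 40 and 0 in uninduced libraries. With eloF at 0 to 3 counts per library, 1 tested gene is too few to read for this cell type. None of the 4 tracheal markers, another cuticle-bearing tissue, passed, with sums of 34.2 to 43.4 CPM in induced and 33.7 to 39.3 CPM in uninduced libraries. With scaling to the library totals alone, 6 neuronal, 7 photoreceptor, 6 muscle and 2 tracheal markers were higher, and 7 fat body and 2 hemocyte markers were lower. Of all 9905 tested genes, 4482 were higher and 875 lower with that scaling. No marker of any of these lists was at 0 in all libraries. The part of these marker changes in the changes of the cuticle genes was not tested.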

How the data were processed

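RNA was sequenced from 8 libraries, 4 per group, as polyA mRNA (paired-end reads). The authors aligned reads to dm6 and deposited raw counts per gene with an aligner, counter and strand setting that the sources used here do not name. The deposited table also holds 8 normalized per-library columns, group means and the authors' DESeq2 fold changes and p-values, none of which was used.

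Counts were analysed in R 4.3.3 with edgeR 4.0.16 (TMM factors, filterByExpr, glmQLFit, glmQLFTest) over all genes, without a replicate term. Standard errors were derived from the F statistic, as |log2 fold change| over its square root. Single genes were also compared by exact two-sided permutation tests on log2(CPM + 0.1), whose smallest p is 0.0286. The test was checked on simulated data. Python 3.11.15 made the summaries. Exon lengths, positions and overlaps came from the Ensembl annotation of the same assembly. Standard errors cover the spread between libraries, described as biological replicates, and floors cover counting error only. Precision was lowest for members of low abundance. Standard errors were 0.18 to 0.44 under 2 CPM, and Lcp65Ac, at a mean of 2.23 CPM, had 0.24.

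Named members were the 12 most abundant by mean CPM, all called genes, the most abundant of each class and genes with adjusted p from 0.05 to 0.1, and in each supporting list the called gene with the largest change, with the 4 lens genes. Any further gene was named after its values had been seen. The members and lists were chosen with earlier results of these data known. Of the listed names, Cpcfc, AANAT1 and desatF were not matched. Alternatives were DESeq2 1.42.0, other scalings, other count filters, a replicate block and leaving out each library. Leaving out libraries from the summed CPM was added after seeing the data.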

Additional observations from a re-analysis of the deposited data

Results flagged for a closer look

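Within the groups of 4 libraries, single libraries stood far from the other 3 for 3 of the 54 groups checked (the named genes in each group), where chance gives about 2.7, or 1 in 20. Resilin had 1.38 CPM in uninduced replicate 2, against 0.748 to 0.792 CPM in the other uninduced libraries. PPO1 had 25.7 CPM in induced replicate 3, against 7.4 to 9.51 CPM in the other induced libraries. Retinin had 456 CPM in uninduced replicate 4, against 398 to 401 CPM in the other uninduced libraries.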

How the results depend on the processing

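All 10 called cuticle genes remained called with RLE size factors, upper quartile scaling, library totals alone, no count filter, a minimum of 10 counts, the replicate block and DESeq2. With 1 library left out, 9 or 10 of them remained, and those lost were Cpr49Ag or Cpr76Bc. Scaling to the library totals alone moved the most values, and called 4482 of all 9905 tested genes higher in place of 1750. It gave 12 higher cuticle genes, a median of 0.31, a summed CPM difference of 130 in place of 39.9, 2 higher and 1 lower chitin genes, 5 higher apical matrix genes, 7 higher pigmentation genes, 1 higher Osiris gene and 11 higher molting genes, and it turned the log2 fold changes of Cpr47Ee to 0.03, Cpr65Au to 0.04, retinin to 0.15 and Cpr66D to 0.11. Without the count filter, which tests more genes, the median was -0.03 and 2 Osiris genes were higher. A minimum of 10 counts left 0 lower molting genes, because CCAP and ETH did not meet it and were not tested. DESeq2 gave 1 lower molting gene, 1 higher Osiris gene and 1 higher gene among the other cuticle proteins.

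With 1 library left out, higher genes numbered 1 to 2 among the other cuticle proteins, 1 to 2 in pigmentation and 0 to 1 in the Osiris family, and lower molting genes 1 to 3. Log2 fold changes ran from -0.08 to 0.12 for Cpr51A, from -0.05 to 0.31 for resilin, from -0.05 to 0.03 for retinin and from -0.19 to 0.06 for Cpr66D. The cause was not tested.

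Libraries with the same replicate number in both groups did not deviate together (correlations of -0.0653 to 0.0251, 1 of 4 uninduced libraries matching its own number best). This does not show whether same-numbered libraries were prepared together. With the replicate block 7 cuticle genes were higher and 3 lower, as without it, and 1 gene among the other cuticle proteins was higher in place of 2.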
